A study of Mus musculus with 32 samples.

Results

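Plk1, Plk4, Aurka, Aurkb, Aurkc, Incenp, Birc5 and Cdca8 encode 2 polo-like kinases, the 3 Aurora kinases and the 3 other subunits of the chromosomal passenger complex. They were taken by symbol, each symbol was matched to 1 Ensembl gene in the mouse GENCODE annotation, and all 8 were among the 20368 genes of the juvenile gene table. Poly-A RNA was measured in germ cells, freed from the testis with Liberase and washed to remove interstitial cells, of 28 male C57BL/6J mice, each mouse a sample of its own, with 3 mice at 8 days post-partum (dpp) and 5 mice at each of 10, 12, 14, 16 and 18 dpp. The authors left out 2 more mice of 8 dpp, whose cytology and RNA matched others of that age poorly, likely from too few cells. Another 4 samples held pachytene and diplotene spermatocytes of 9 weeks old C57BL/6J males, enriched but not purified by sedimentation (STA-PUT) and each pooled from 6 mice. All groups were wild type and untreated as far as the labels say, and the ages cover the first wave of spermatogenesis, in which spermatogonia enter meiosis and spermatocytes move through prophase.

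Polo-like kinases and Aurora kinases drive chromosome segregation. PLK1 acts in spindle assembly, centrosome maturation and the release of cohesion, while PLK4 starts centriole duplication. Aurora A works at the spindle poles, and Aurora B forms the chromosomal passenger complex with the scaffold INCENP, survivin (Birc5) and borealin (Cdca8), which moves from centromeres to the spindle midzone and corrects wrong attachments. Aurora C can take the place of Aurora B in that complex and is known mainly from germ cells. In spermatocytes the complex is loaded during late prophase, ahead of the first meiotic division, whereas in spermatogonia the same proteins serve mitosis.

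The values are TPM, transcript abundances per length that sum to a constant in each sample and keep no read counts, so the depth of each sample is unknown and the spread between mice was the only error available. The juvenile samples were mixtures. The summed TPM of 8 Sertoli cell markers was 7591 to 8611 at 8 dpp and 3577 to 4739.7 at 18 dpp, with all 8 markers above 1 TPM. The sum of 6 spermatogonial markers was 1029 to 1157 TPM at 8 dpp and 460.3 to 664 TPM at 18 dpp, and that of 6 spermatocyte markers was 239 to 349.8 TPM and 2034 to 2411 TPM. Spermatid markers reached at most 17.0 TPM in sum in any juvenile mouse, and 5 of the 6 had a mean under 1 TPM from 10 to 18 dpp. The adult samples held 321 to 470.0 TPM of Sertoli markers, 28.2 to 33.8 TPM of spermatogonial markers and 872 to 1189 TPM of spermatid markers. Clu had a mean of 313 TPM within that Sertoli sum. Mice 4 and 5 of 18 dpp stood apart from mice 1 to 3 of that age, with 4709 and 4739.7 TPM of Sertoli markers against 3577 to 3734 TPM. The main results at 18 dpp are also given without mice 4 and 5, a choice made after the values were seen. In such bulk samples, fewer cells of a type and less RNA per cell cannot be told apart. The index sequences of the libraries from 8 to 12 dpp were used again from 14 to 18 dpp, and the set of libraries and the change from 12 to 14 dpp, or from 8 to 18 dpp, cannot be told apart.

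All 8 genes differed among the 6 ages (limma, moderated F-test on log2(TPM + 1), adjusted p of at most 0.00334), as did 77.6% of all genes tested. Between 8 and 18 dpp, 6 of the 8 rose and 2 fell, against 31.8% of all genes higher and 36.3% lower. Aurka and Aurkc had the largest increases, on the log2 scale 2.08 and 2.22, Birc5, Plk4, Cdca8 and Plk1 rose by 0.65 to 1.21, and Aurkb and Incenp fell by 0.32 and 0.25. The median log2 fold change of the 8 genes was 0.86, and the median of all genes was -0.09. From 16 to 18 dpp, 6 rose and 0 fell, against 23.4% and 30.6% of all genes. With median-of-ratios scaling, the median of all genes from 8 to 18 dpp moved to 0.05, the 6 increases still passed the test, and neither decrease did, so the split was 6 higher and 0 lower. With quantile normalization the median of all genes was -0.26 and the split was again 6 and 2. Without mice 4 and 5 of 18 dpp, the same 6 genes were higher than at 8 dpp and none passed as lower, against 31.7% and 38.8% of all genes. Compared with 16 dpp, 7 were then higher and 0 lower, against 25.2% and 35.9% of all genes.

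**Figure D1:**
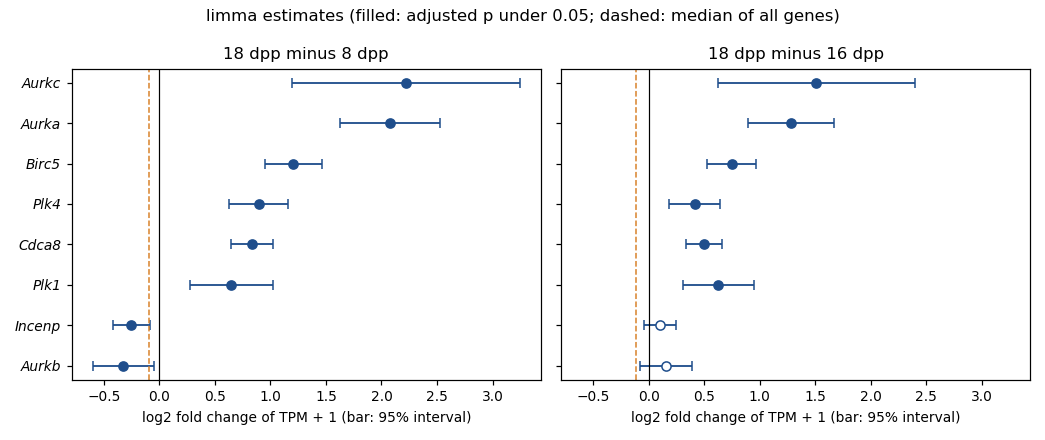
Log2 fold changes of TPM + 1 from limma for the 8 genes (rows), at 18 dpp against 8 dpp (left) and against 16 dpp (right), with bars for the 95% interval, filled points for an adjusted p under 0.05 and a dashed line at the median of all genes. From 8 dpp the points run from -0.32 for Aurkb to 2.22 for Aurkc, and from 16 dpp all 8 lie above 0, of which 6 are filled.

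Plk1 (ENSMUSG00000030867, chromosome 7 from 122159439 to 122169873 of GRCm38, plus strand) had overlapping ranges from 8 to 16 dpp and was higher at 18 dpp in 3 of 5 mice. Its level was 26.1, 26.6 and 29.9 TPM in the 3 mice of 8 dpp. It was 26.8 to 31.5 TPM in the 5 mice of 10 dpp and 26.2 to 31.2 TPM at 12 dpp. The mice of 14 dpp had 34.8, 29.4, 31.9, 37.8 and 42.9 TPM, in the order of mice 1, 2, 3, 6 and 7. At 16 dpp the range was back at 25.7 to 31.0 TPM, overlapping every earlier age. The 5 mice of 18 dpp had 60.0, 59.4, 54.4, 26.9 and 30.3 TPM, in the order of mice 1 to 5. Mice 1 to 3 were thus above every younger mouse, whereas mice 4 and 5 lay within the range of 8 to 16 dpp. The log2 fold change of 18 dpp against 8 dpp was 0.65 (SE 0.180, adjusted p = 0.00240) and that against 16 dpp was 0.63 (SE 0.156, adjusted p = 0.00147), both in limma with its standard error (SE) and the p adjusted over all genes. With 18 and 8 dpp alone in the model, so that the spread at 18 dpp was not averaged with that of the other ages, the adjusted p was 0.0789. Without mice 4 and 5 of 18 dpp, the change in limma was 1.05 from 8 dpp and 1.02 from 16 dpp (adjusted p = 1.51e-09 for both). These mice were left out after the values were seen and were the lowest of 18 dpp, so the larger change follows from that choice. A gene model on the opposite strand, Gm44985, overlaps Plk1, and the strand protocol is not given in the sources used here. Of the 75-base words of the Plk1 transcript, 5.92% also occur in that model or in the pseudogene Plk-ps1. Gm44985, with 84 of these words, had no deposited values. Plk-ps1, with 49 of them, reached at most 5.85 TPM.

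Plk4 (ENSMUSG00000025758, chromosome 3 from 40800019 to 40816883, plus strand) rose more evenly. It had 28.5, 20.9 and 26.4 TPM at 8 dpp and 43.7, 35.3, 28.3, 33.0 and 37.9 TPM at 16 dpp. At 18 dpp the values were 53.1, 54.3, 49.4, 41.9 and 39.8 TPM, all above the 3 mice of 8 dpp, with mice 4 and 5 again the lowest and within the range of 16 dpp. In limma, Plk4 changed by 0.89 (SE 0.129, adjusted p = 7.7e-07) from 8 dpp and by 0.41 (SE 0.111, adjusted p = 0.00288) from 16 dpp. Plk1 and Plk4 were at similar levels at most ages, with a Plk1 to Plk4 ratio of 1.11 ± 0.181 at 8 dpp (SD, n = 3), 0.809 ± 0.186 at 16 dpp and 0.946 ± 0.227 at 18 dpp (SD, n = 5 each).

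Aurka (ENSMUSG00000027496, chromosome 2 from 172356190 to 172370535, minus strand) had the largest gain in mean TPM among the 8 genes from 8 to 18 dpp. It stood at 22.3, 27.6 and 27.2 TPM at 8 dpp, and at 22.1 to 28.1 TPM at 10 dpp and 19.2 to 29.5 TPM at 12 dpp. The mice of 14 dpp had 35.4, 26.3, 27.3, 39.5 and 35.1 TPM and those of 16 dpp 56.9, 41.1, 37.8, 40.1 and 52.3 TPM. At 18 dpp it reached 154, 157, 138, 67.6 and 73.9 TPM, so that every mouse was above every younger mouse, and mice 1 to 3 stood well above mice 4 and 5. This was a rise by 2.08 (SE 0.218, adjusted p = 3.18e-09) from 8 dpp and by 1.28 (SE 0.188, adjusted p = 5.57e-06) from 16 dpp on the log2 scale. The rise from 8 dpp was 2.50 without mice 4 and 5 of 18 dpp. None of the 75-base words of its transcripts occurred in another gene's transcripts.

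**Figure D2:**
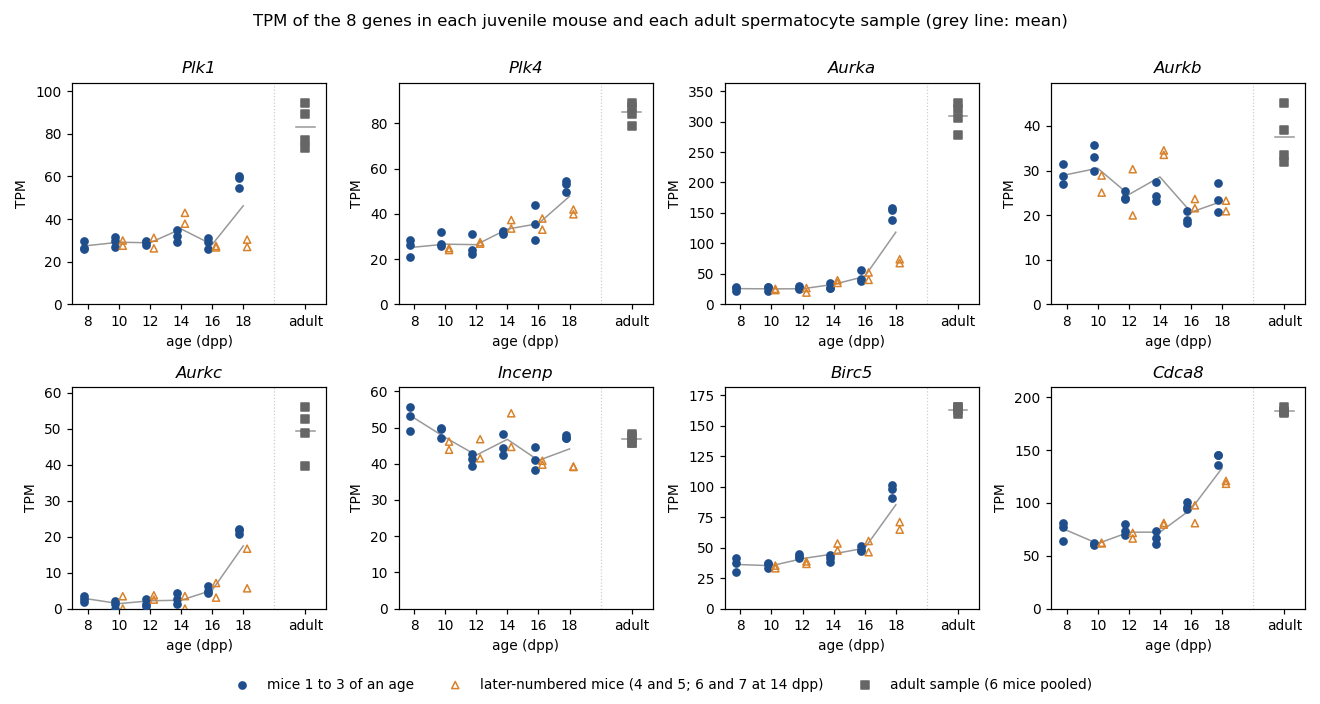
TPM (vertical axis, from 0, a scale per gene) of the 8 genes against age in dpp, with filled circles for mice 1 to 3 of an age, open triangles for the later-numbered mice, squares for the adult samples, a grey line through the means and a dotted line before the separately normalized adult samples. At 18 dpp the triangles of Plk1 (26.9 and 30.3 TPM) lie at the level of 8 to 16 dpp and those of Aurka, Birc5 and Cdca8 lie between 16 dpp and the circles.

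Aurkb (ENSMUSG00000020897, chromosome 11 from 69045647 to 69051664, plus strand) did not follow Aurka. Its level was 27, 28.8 and 31.4 TPM at 8 dpp and 35.8, 33.0, 29.8, 25.1 and 28.9 TPM at 10 dpp. At 14 dpp it was 27.4, 24.3, 23.1, 34.5 and 33.5 TPM and at 16 dpp 18.2, 18.97, 20.9, 23.6 and 21.6 TPM, where the highest mouse of 16 dpp only just exceeded the lowest of 14 dpp. At 18 dpp it was 23.4, 27.3, 20.8, 23.2 and 20.9 TPM, and mouse 2 lay within the range of 8 dpp. On the log2 scale the difference of 16 from 14 dpp was -0.44 (SE 0.115, adjusted p = 0.00652) and that of 18 from 8 dpp -0.32 (SE 0.133, adjusted p = 0.0337). The latter passed the test by little and was lost when mouse 2 or 3 of 8 dpp or mouse 3 or 5 of 18 dpp was left out, with an adjusted p of up to 0.133. Between 16 and 18 dpp its difference was 0.15 with a 95% interval of -0.08 to 0.39.

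Aurkc (ENSMUSG00000070837, chromosome 7 from 6995300 to 7003091, plus strand) had the lowest mean of the 8 genes in every juvenile group, as listed without the pseudogene described below. It had 2.79, 3.42 and 1.82 TPM at 8 dpp and 0, 2.17, 1.23, 0 and 3.43 TPM at 10 dpp, and it was listed at 0 in 3 of the 28 mice. It had 0.830 to 3.69 TPM at 12 dpp, 0 to 4.20 TPM at 14 dpp and 6.16, 4.37, 4.78, 3.04 and 7.10 TPM at 16 dpp, and reached 3 TPM in 15 of the 28 mice. At 18 dpp it was 22.2, 20.9, 21.8, 5.63 and 16.6 TPM, above all mice of 8 to 14 dpp, with mouse 4 inside the range of 16 dpp. Aurkc thus rose by 2.22 (SE 0.499, adjusted p = 0.000309) from 8 dpp and by 1.51 (SE 0.432, adjusted p = 0.00470) from 16 dpp, and with a pseudocount of 0.1 TPM in place of 1 TPM the latter had an adjusted p = 0.123.

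Aurkc shares sequence with pseudogenes. Of its 1742 words of 75 bases, 755 (43.3%) occurred in other gene models, 630 of them in the processed pseudogene Gm12463 (chromosome 4 from 44752277 to 44753125). Of these models, only Gm12463 had deposited values. Gm12463 was itself listed at 11.8, 12.3, 15.9, 8.34 and 0 TPM in the mice of 18 dpp and at 0 to 1.56 TPM at 8 dpp, so the split of reads between both is uncertain. Their sum was 33.9, 33.1, 37.7, 14.0 and 16.6 TPM at 18 dpp, and 2.79 to 3.42 TPM at 8 dpp, so every mouse of 18 dpp was above the younger ones, whose highest sum was 8.96 TPM at 16 dpp. With the sum in place of Aurkc, a choice made after the values were seen, the change was 2.64 from 8 dpp (adjusted p = 3.29e-09) and 1.81 from 16 dpp (adjusted p = 2.32e-06).

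Within the Aurora kinases, the kinase with the largest share of the RNA changed from Aurkb to Aurka. Aurkb held 50.7 ± 2.19% of the TPM of the 3 kinases at 8 dpp (SD, n = 3), Aurka 44.6 ± 1.70% and Aurkc 4.70 ± 1.47%. At 18 dpp the shares were 15.9 ± 5.46%, 73.3 ± 4.88% and 10.8 ± 3.31% in the same order (SD, n = 5). The Aurkb share did not overlap between these ages, with 48.2% as the lowest at 8 dpp and 24.1% as the highest at 18 dpp. The ratio of Aurkc to Aurkb TPM went from 0.0933 ± 0.0317 at 8 dpp to 0.251 ± 0.0862 at 16 dpp and 0.761 ± 0.312 at 18 dpp, where it ranged from 0.242 to 1.05. In mice 1 to 3 of 18 dpp alone, Aurkb held 12.1 ± 0.985%, Aurka 76.8 ± 0.385% and Aurkc 11.1 ± 0.951% (SD, n = 3), and the Aurkc to Aurkb ratio was 0.921 ± 0.145. These shares are descriptions and were given no test. They count Aurkc without Gm12463. The sum of Aurkc and Gm12463 at 18 dpp was 27.1 ± 10.9 TPM (14.0 to 37.7), against 23.1 ± 2.66 TPM (20.8 to 27.3) for Aurkb (SD, n = 5).

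**Figure D3:**
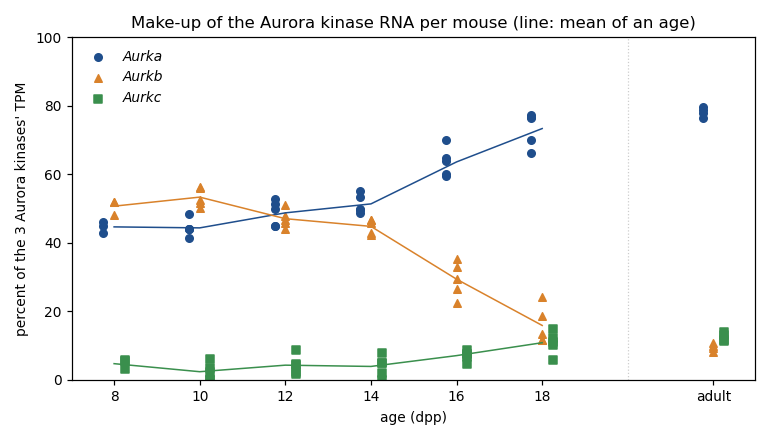
Percent of the summed TPM of Aurka (circles), Aurkb (triangles) and Aurkc (squares) that each kinase held in each sample, against age in dpp, with lines through the means of the juvenile ages and the adult samples to the right of the dotted line. The Aurkb points go from 48.2% to 52.0% at 8 dpp to 11.5% to 24.1% at 18 dpp.

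The other subunits of the passenger complex moved apart from each other. The scaffold gene Incenp (ENSMUSG00000024660, chromosome 19 from 9872296 to 9899551, minus strand) had 55.6, 49.1 and 53.2 TPM at 8 dpp and 47.0, 48.0, 47.0, 39.2 and 39.1 TPM at 18 dpp, and all mice of 18 dpp were below those of 8 dpp. Its log2 fold change was small, at -0.25 (SE 0.0813, adjusted p = 0.00729), and was -0.15 without mice 4 and 5 of 18 dpp (adjusted p = 0.0934) and -0.08 with median-of-ratios scaling (adjusted p = 0.455). Its difference from 16 to 18 dpp was 0.10, with a 95% interval of -0.04 to 0.25.

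Birc5 (ENSMUSG00000017716, chromosome 11 from 117849251 to 117855743, plus strand), the gene of survivin, had 37.0, 29.9 and 41.3 TPM at 8 dpp and 51.2, 47.9, 47.3, 46.3 and 55.5 TPM at 16 dpp. At 18 dpp it had 102, 97.8, 90.6, 71.0 and 64.8 TPM, above every younger mouse. It rose by 1.21 (SE 0.124, adjusted p = 2.25e-09) from 8 dpp and by 0.75 (SE 0.107, adjusted p = 4.45e-06) from 16 dpp.

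Cdca8 (ENSMUSG00000028873, chromosome 4 from 124918465 to 124939311, minus strand), the gene of borealin, had the highest mean of the 8 genes at each juvenile age, although in mice 1 and 2 of 18 dpp Aurka was above it. It had 77.4, 64.4 and 80.6 TPM at 8 dpp and 59.9, 61.2, 62.4, 62.4 and 61.7 TPM at 10 dpp, which was lower in all 5 mice. It then had 73.3, 61.3, 66.7, 81.1 and 79.5 TPM at 14 dpp, 101, 93.8, 96.3, 80.9 and 97.8 TPM at 16 dpp and 136, 145, 146, 121 and 118 TPM at 18 dpp. Only the lowest mouse of 16 dpp fell within the range of 14 dpp, and 18 dpp did not overlap with any younger age. The change was 0.38 (SE 0.0796, adjusted p = 0.00095) from 14 to 16 dpp, 0.50 (SE 0.0796, adjusted p = 1.49e-05) from 16 to 18 dpp and 0.84 (SE 0.0919, adjusted p = 7.42e-09) from 8 to 18 dpp. The gene 9930104L06Rik overlaps Cdca8 on the opposite strand, with means of 10.3 to 16.7 TPM over the groups. Of the 75-base words of the Cdca8 transcripts, 1.76% also occur, on either strand, in that gene or in others. Reads within such words cannot be assigned by sequence alone.

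The TPM of Birc5 over that of Incenp was 0.684 ± 0.0855 at 8 dpp (SD, n = 3), 1.22 ± 0.124 at 16 dpp and 1.92 ± 0.195 at 18 dpp (SD, n = 5 each). For Cdca8 over Incenp these ratios were 1.41 ± 0.103, 2.30 ± 0.242 and 3.02 ± 0.0859. For Aurkb over Incenp they were 0.554 ± 0.0600, 0.506 ± 0.0623 and 0.526 ± 0.0598. In mice 1 to 3 of 18 dpp alone, the ratios to Incenp were 2.04 ± 0.117 for Birc5, 3.00 ± 0.111 for Cdca8 and 0.502 ± 0.0637 for Aurkb (SD, n = 3). The ratios of Birc5 and Cdca8 to Incenp did not overlap between these 3 ages, and that of Aurkb did. Aurkb and Incenp, which were not called from 16 to 18 dpp, had unadjusted p-values of 0.193 and 0.160 in limma. With median-of-ratios scaling, or in mice 1 to 3 of each age alone, all 8 were called higher. The share of all genes called in these settings was not counted. Median-of-ratios scaling moved the median of all genes for this step from -0.11 to 0.03.

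At 18 dpp the mice themselves differed. In 7 of the 8 genes mice 1 to 3 lay above mice 4 and 5 without overlap, and Aurkb was the exception, with 20.8 to 27.3 TPM over all 5 mice. The share of all genes that separated these mice in this way was not counted. The means of mice 1 to 3 and of mice 4 and 5 were 57.9 and 28.6 TPM for Plk1, 150.0 and 70.7 TPM for Aurka, 21.6 and 11.1 TPM for Aurkc, and 96.7 and 67.9 TPM for Birc5. They were 142 and 119.5 TPM for Cdca8, 52.3 and 40.8 TPM for Plk4, and 47.4 and 39.2 TPM for Incenp. The same mice 4 and 5 had more RNA of peritubular markers (1006 and 1034 against 524 to 586 TPM in sum over 5 genes), more of macrophage markers (31.2 and 32.6 against 19.4 to 21.8 TPM over 4 genes) and of Leydig markers (325 and 472 against 169 to 186 TPM over 6 genes). They had less RNA of spermatocyte markers (2034 and 2041 against 2285 to 2411 TPM) and more of spermatogonial markers (622 and 664 against 460.3 to 486 TPM). The part of these cell types in the difference was not tested. Without mice 4 and 5, limma gave changes from 8 to 18 dpp of 2.64 for Aurkc, 1.41 for Birc5, 1.03 for Plk4 and 0.94 for Cdca8, and from 16 to 18 dpp of 1.71 for Aurka, 1.93 for Aurkc, 0.95 for Birc5, 0.59 for Cdca8 and 0.55 for Plk4 on the log2 scale, each larger than with them. At 14 dpp, mice 6 and 7 were in contrast above mice 1 to 3 without overlap for Plk1, Plk4, Aurkb, Birc5 and Cdca8, and at 16 dpp mice 4 and 5 overlapped with mice 1 to 3 for all of the 8 genes but Aurkb. The share of all genes was not counted at these ages either.

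After the mean of each age was subtracted, the Pearson correlation of log2(TPM + 1) over the 28 mice was highest between Plk1 and Aurka, at 0.82, followed by Plk1 and Incenp at 0.76 and Birc5 and Cdca8 at 0.73. The 21 pairs without Aurkc had correlations of 0.27 to 0.82, with a median of 0.55. Over the 26 mice without mice 4 and 5 of 18 dpp, the median was 0.42 and that of Plk1 and Aurka was 0.44, so these values were higher with those mice than without them. Aurkc, the gene of the lowest TPM, had correlations from -0.24 to 0.27 with the others. The points share libraries and cell mixture, and the values are descriptions only.

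In the earlier steps, the share of the 8 genes that was called was near that of all genes. From 8 to 10 dpp, 0 were higher and 0 lower (0.977% and 0.226% of all genes), and only Cdca8 had an unadjusted p under 0.05, at 0.00914 in limma, with a log2 fold change of -0.26. From 10 to 12 dpp, Cdca8 alone was higher (12.0% of all genes), by 0.23 (SE 0.0796, adjusted p = 0.0416) on the log2 scale, and 0 were lower (9.39%). That call was lost when any mouse of 10 dpp or mouse 1, 3 or 5 of 12 dpp was left out, with an adjusted p of up to 0.119, although the 5 mice of 12 dpp were all above the 5 of 10 dpp. Aurkb and Incenp had unadjusted p-values of 0.0146 and 0.0367 for a lower level at 12 dpp. From 12 to 14 dpp, 0 were higher and 0 lower (0.157% and 0.0147% of all genes), and Plk4 alone had an unadjusted p under 0.05, at 0.00626, for a log2 fold change of 0.33. From 14 to 16 dpp, Cdca8 was higher (12.7% of all genes) and Aurkb lower (11.3%), while Aurka and Aurkc had log2 fold changes of 0.47 and 1.05 that missed the threshold, at adjusted p = 0.0721 and 0.0780, and Incenp one of -0.18 at adjusted p = 0.0568.

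Promoter sequence of Plk1, Plk4, Aurka, Aurkc and Birc5 was read from the RefSeq promoter table (GRCm38.p6, windows of 300 bases that end 50 bases after a gene's start). It was searched for 2 motifs known from genes that peak late in the cell cycle, the cell cycle genes homology region (TTTGAA) and the CCAAT box, on both strands. Positions count from the RefSeq start as base 1, which for Plk1 and Aurka lies 4 and 35 bases upstream of the start of the GENCODE gene model given above, and for Aurkc 85 bases downstream of it. TTTGAA began at base 31 of Plk1 and base 33 of Aurka, the 2 matches among these 5 promoters. Of all 32851 promoters in the table, 17.9% held TTTGAA anywhere and 4.94% held it in the last 100 bases of the window. Both windows are printed because they hold the match, in capitals, and are read 5′ to 3′ on the strand of the gene.
Plk1 (chr7:122159453-122159482, plus strand): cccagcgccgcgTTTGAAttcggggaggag
Aurka (chr2:172370521-172370550, minus strand): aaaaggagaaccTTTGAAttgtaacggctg

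The CCAAT box began 14 bases before the RefSeq start of Plk1 and 51 and 19 bases before that of Aurka, and it overlapped with no TTTGAA there. Of all promoters, 37.4% held CCAAT on either strand. Aurkc had 1 CCAAT on the other strand, at base 25, and no TTTGAA, and the windows of Plk4 and Birc5 held neither. Plk1 and Aurka, with TTTGAA, had log2 fold changes from 8 to 18 dpp of 0.65 and 2.08, and the values of Birc5 and Plk4, with neither motif, lay between them. A match is a description of letters and was not tested as a site.

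The share of each transcript in its gene's TPM could be tested for 4 of the 8 genes. Plk1, Aurkc and Incenp had 1 transcript each in the files, Cdca8 had 6 of which 1 reached a mean of 1 TPM, and 11 transcripts of Aurka, Aurkb, Birc5 and Plk4 were eligible for the test of shares of a gene's TPM, late (10 mice at 16 or 18 dpp) against early (8 mice at 8 or 10 dpp). Of these, 0 changed by at least 20 points at an adjusted p under 0.05, against 2.30% of all transcripts tested, which is near 0 of 11. The 2 with an unadjusted p under 0.05 in limma were the only transcripts of Birc5. Their shares changed by equal and opposite amounts and form a single result. The dominant transcript of Aurka (ENSMUST00000109140) held 89.0% ± 11.6 of the gene early (SD, n = 8) and 88.6% ± 5.62 late (SD, n = 10), while the TPM of the gene rose. The main Birc5 transcript (ENSMUST00000081387) went from 93.0% ± 1.53 to 96.0% ± 1.32, a change of 2.98 points (SE 0.728, adjusted p = 0.00979, limma), under the 20 points that count as a call. For Aurkb and Plk4 the largest transcripts held 78.8% and 76.9% early and 78.9% and 71.7% late, and none of the unadjusted p-values of their transcripts was under 0.05.

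In the adult samples, which were normalized in a separate table and are set beside 18 dpp without a test, 7 of the 8 genes had a higher mean than at 18 dpp by 10 TPM or more, and Incenp did not. Incenp had means of 46.8 TPM in the adult samples and 44.1 TPM at 18 dpp. The share of all genes with a gap of 10 TPM or more was not counted. Aurka was at 306, 331, 278 and 320.1 TPM in the 4 samples, against a highest value of 157 TPM at 18 dpp. Plk1 was at 76.8, 94.5, 73.1 and 89.0 TPM and Plk4 at 83.9, 79.0, 89.0 and 87.2 TPM, all above every juvenile mouse. Aurkc was at 56.0, 48.9, 39.7 and 52.7 TPM and Aurkb at 39.2, 45.2, 32.0 and 33.4 TPM. The Aurkb values of 32.0 and 33.4 TPM lay inside its juvenile range, which reached 35.8 TPM at 10 dpp. Gm12463 was listed at 21.45 to 28.5 TPM in these samples, which the values of Aurkc do not include.
Birc5 was at 159.6 to 165 TPM and Cdca8 at 185 to 191 TPM, with little spread, and Incenp was at 45.6 to 48.3 TPM, inside its juvenile range. The Aurora shares were 78.1 ± 1.41% for Aurka, 12.4 ± 1.25% for Aurkc and 9.44 ± 1.02% for Aurkb (SD, n = 4), and the Aurkc share was above the Aurkb share in each sample. The spermatid markers in these samples, all 6 above 1 TPM in mean, came with these levels, and their part was not tested.

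The order of the 8 genes by level changed with age. At 8 dpp Cdca8 came first with 74.1 ± 8.58 TPM, Incenp second with 52.6 ± 3.31 TPM and Aurkc last with 2.68 ± 0.806 TPM (SD, n = 3), and the 5 genes between, from Birc5 at 36.1 ± 5.75 TPM to Plk4 at 25.2 ± 3.95 TPM, overlapped with their neighbours in the order. At 18 dpp the order was Cdca8 (133 ± 13.1 TPM), Aurka (118 ± 44.1 TPM), Birc5 (85.2 ± 16.4 TPM), Plk4 (47.7 ± 6.56 TPM), Plk1 (46.2 ± 16.2 TPM), Incenp (44.1 ± 4.52 TPM), Aurkb (23.1 ± 2.66 TPM) and Aurkc (17.4 ± 6.95 TPM; SD, n = 5), and only Birc5 and Plk4, and Incenp and Aurkb, did not overlap among neighbours. In mice 1 to 3 of 18 dpp alone, Aurka (150.0 ± 10.2 TPM) came before Cdca8 (142 ± 5.76 TPM), with overlap, and Plk1 (57.9 ± 3.05 TPM) before Plk4 (52.3 ± 2.54 TPM), without overlap (SD, n = 3), and the other ranks were as with all 5 mice. In the adult samples Aurka came first at 309 ± 22.7 TPM and Aurkb last at 37.4 ± 6.03 TPM (SD, n = 4). TPM is per transcript length, which allows levels of different genes to be set side by side. Aurkc was ranked without Gm12463.

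Genes that work with these kinases were grouped in lists, and their changes from 8 to 18 dpp were counted without a test of the list. Of 6 activators and spindle partners of Aurora A, 4 rose and 2 fell (median log2 fold change 0.46, against -0.09 for all genes). Tpx2, which activates Aurora A on microtubules, had 50.3 ± 5.37 TPM at 8 dpp and 76.7 ± 4.53 TPM at 18 dpp, a log2 fold change of 0.60 (adjusted p = 1e-07). Bora, the cofactor with which Aurora A activates PLK1, rose by 0.55. The adaptor genes Ajuba and Nedd9, which also act in cell adhesion, fell by 1.57 and 2.86, and were at 2.82 and 0.562 TPM in the adult samples, where Sertoli markers were low, a relation that was not tested.

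Of 6 recruiters and partners of the passenger complex, 4 rose, 1 fell and 1 did not pass (median 0.72). Haspin, the kinase that marks histone H3 for the complex, rose from 5.34 ± 0.905 TPM (SD, n = 3) to 167 ± 89.8 TPM (SD, n = 5), a log2 fold change of 4.53 (adjusted p = 1.43e-11), and had a mean of 596 TPM in the adult samples. At 18 dpp it was at 246, 242 and 208 TPM in mice 1 to 3 and at 74.97 and 66.0 TPM in mice 4 and 5, and the log2 fold change without the latter was 5.21. Sgo2a, the shugoshin of meiotic centromeres, rose by 1.36 from 13.0 ± 1.81 TPM, while Sgo1 had a log2 fold change of -0.34 (adjusted p = 0.0788). Rcc2, whose product sits at centromeres with the complex, fell by 0.77.

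Of 9 partners and substrates of PLK1, 4 rose, 4 fell and 1 did not pass (median -0.12). Cenpu, a kinetochore anchor of PLK1, and Prc1, the bundler of midzone microtubules, rose by 1.75 and 1.38, and Fbxo5 and Wee1, inhibitors of the anaphase-promoting complex and of CDK1, fell by 0.64 and 0.61. Among 7 centriole duplication partners of PLK4, 6 rose and 0 fell (median 1.09). Cep63 went from 28.4 ± 3.41 to 239 ± 85.6 TPM and Ccp110, the cap of the centriole, from 35.0 ± 5.21 to 177 ± 27.9 TPM, log2 fold changes of 2.95 and 2.30, or 3.37 and 2.46 without mice 4 and 5 of 18 dpp. Cep63 was at 281 to 313 TPM in mice 1 to 3 and at 151 and 140.3 TPM in mice 4 and 5. Cenpj rose by 0.37, and Cep152, a scaffold that recruits PLK4, had 0.11 (adjusted p = 0.499).

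Of the 3 other polo-like kinases, 0 rose and 1 fell (median -0.12). Plk3 fell by 0.99 from 8.60 ± 1.12 TPM, and Plk2 and Plk5 had log2 fold changes of 0.18 (adjusted p = 0.231) and -0.12 (adjusted p = 0.579). Of 6 genes of proliferating cells, 2 rose, 2 fell and 2 did not pass (median -0.04). Cdk1 and Top2a rose by 0.64 and 0.33, and Mybl2 and Ccnb1 fell by 1.04 and 0.45. At 18 against 16 dpp, where 23.4% of all genes were higher and 30.6% lower, the counts were 3 higher and 2 lower of 6 Aurora A partners, 3 and 1 of 6 passenger partners, 4 and 3 of 9 PLK1 partners, 5 and 0 of 7 PLK4 partners, 0 and 0 of 3 other polo-like kinases, and 2 and 1 of 6 proliferation genes. Without mice 4 and 5 of 18 dpp, the counts from 8 dpp were the same but for 5 lower PLK1 partners and 3 higher proliferation genes, and those from 16 dpp the same but for 2 lower PLK1 partners and 2 lower polo-like kinases. The median of the proliferation genes from 8 dpp then turned from -0.04 to 0.08.

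**Figure D4:**
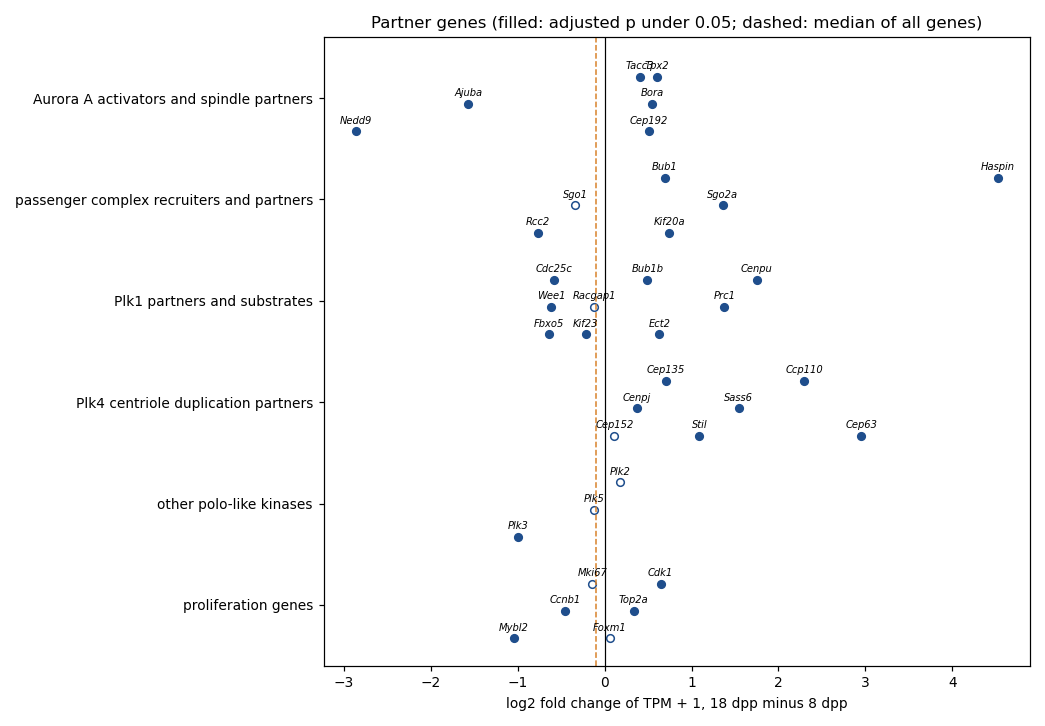
Log2 fold change of TPM + 1 from 8 to 18 dpp (horizontal axis) of each gene in the 6 lists (rows, spread vertically only for legibility), with filled points for an adjusted p under 0.05 in limma and a dashed line at the median of all genes, -0.09. The PLK4 partners all lie to the right of 0, while each other list has genes on both sides, from -2.86 for Nedd9 to 4.53 for Haspin.

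The genes whose pattern over the 28 mice was most like that of a member were taken from 12946 other genes with an Ensembl symbol and a mean of at least 3 TPM, by Pearson's r of log2(TPM + 1), as a description. Plk1 was most like Cenpe, Tut1 and Ncoa4 (r = 0.89, 0.87 and 0.86), and Plk4 most like Pus10 and Rmi1 (both 0.96). Aurka was followed most closely of all, by Wbp11 and Lrwd1 (both 0.99), of which Wbp11 went from 104.7 TPM at 8 dpp to 279.9 TPM at 18 dpp in mean. Aurkb was most like Galk1 and Map3k9 (0.81 and 0.80), and Aurkc most like Fuz, Cnot4 and Upf3a (all 0.87). Incenp was most like Ccnb1, the cyclin B1 gene, and Ehmt2 (both 0.84). Birc5 was most like Abcb9 and Agtpbp1 (both 0.97), and Cdca8 most like Mael and Nek2 (both 0.97).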

How the data were processed

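The authors aligned 100 bp paired-end reads of poly-A libraries with Bowtie 1.0.0 to an mm10 transcriptome (Ensembl 75 with NONCODE genes and precursors of piRNAs). RSEM 1.2.8 then gave the TPM values, and the deposited juvenile gene table holds the genes with at least 3 TPM in at least 1 of 28 mice. That table held exp(log2(TPM + 1)) - 1 in place of TPM, so its values were converted back, after which 20288 of 20368 genes were within 0.2 TPM of the sum of their deposited transcript TPM and the 8 genes within 0.02 TPM. The strand protocol is not given in the sources used here.

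Tests used limma 3.58.1 in R 4.3.3 on log2(TPM + 1), a two-sided empirical Bayes fit with a prior variance that follows the mean, with 6 ages as groups of 28 mice in 1 model. P-values were adjusted by Benjamini-Hochberg over all genes, and calls were made at an adjusted p under 0.05. Groups came from the sample labels. TPM carries no depth, so counting error could not be given. The adult TPM table was not tested against the juvenile one. Scripts were tested on simulated data, and used Python 3.11.15, numpy 2.4.6, pandas 2.3.3 and matplotlib 3.10.9.

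The 8 genes and all lists were chosen with earlier results of these data known. All 8 genes were named. Of each list, up to 4 genes were named, those of the smallest and largest change from 8 to 18 dpp. The 2 genes most like each member were named, and 3 for Plk1 and Aurkc. Gm12463 and other overlapping or sequence-sharing gene models were named after their values were seen. Gene positions follow GENCODE M21 on GRCm38. The promoter of Cdca8 is not reported here. The alternatives were a pseudocount of 0.1 TPM, no filter on low values, a filter of at least 3 TPM in at least 3 mice, the transcript table summed by gene, median-of-ratios factors, quantile normalization, only the 2 ages compared, a constant prior variance, a replicate block, mice 1 to 3 of each age alone, for transcripts a gene mean of at least 1 TPM or a change of at least 10 points, and each sample left out in turn. Leaving out mice 4 and 5 of 18 dpp and the sum of Aurkc and Gm12463 were added after seeing the data.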

Additional observations from a re-analysis of the deposited data

How the results depend on the processing

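Of 1252 recomputed values under the alternatives, 1187 kept their direction and call or stayed near the main value, 41 moved, 24 lost their call and 0 reversed. The 6 increases from 8 to 18 dpp passed in all alternatives but that of Plk1 with only the 2 ages compared. The 2 decreases became 1 without the filter on low values and in mice 1 to 3 of each age alone, 0 with median-of-ratios factors and 0 without mice 4 and 5 of 18 dpp, and ranged from 1 to 2 when 1 mouse was left out. From 10 to 12 dpp, the 1 higher gene became 0 without the filter, with median-of-ratios factors or a constant prior variance, and 2 with only the 2 ages compared. The 0 lower genes of that step became 1 with median-of-ratios factors or quantile normalization and 2 in mice 1 to 3 alone. With 1 mouse left out, the counts were 0 to 1 higher and 0 to 1 lower. From 14 to 16 dpp, the count of higher genes was 2 with quantile normalization, with only the 2 ages compared, in mice 1 to 3 alone or without mice 4 and 5 of 18 dpp. Lower genes numbered 2 with quantile normalization or only the 2 ages compared, and 3 without mice 4 and 5 of 18 dpp. With 1 mouse left out, 1 to 2 were higher and 1 to 2 lower. The cause of these moves was not tested. TPM values carry no depth, so the precision of low levels such as those of Aurkc before 18 dpp is unknown.

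Mice of different ages that share a number were treated as unpaired, as the labels do not say that they were paired. Of 57 pairs with the same number, the median correlation of deviations from the age means was 0.015, and 3 were over 0.1. For the 268 pairs with different numbers, the median was 0.00059 and 15 were over 0.1. Such medians cannot show that mice with the same number shared no handling. With a replicate block on the number, from 14 to 16 dpp 3 genes were higher and 0 lower, and the log2 fold change of Aurkb was -0.25 (adjusted p = 0.183, limma) in place of -0.44.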
